A study of Mus musculus with 20 samples.

Results

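Hepatic iron regulation is described here through 10 genes chosen by symbol, out of 22298 gene rows measured in every library. Hamp and Hamp2 encode hepcidins, Bmp6, Hfe and Id1 belong to the pathway that sets hepcidin transcription, Tfrc and Trf carry iron into cells, Fth1 and Ftl1 store it, and Slc40a1 exports it. All 10 were found once in each of the 20 libraries, and all passed the filter on low counts. The livers came from male mice with the Lepr db/db genotype, in which loss of leptin receptor signalling leads to obesity and diabetes. Each mouse received an adeno-associated virus 8 vector through the tail vein at 5 weeks of age. Vec mice carried AAV8-Vec with a non-targeting shRNA, and shRNA mice carried AAV8-PPARγ-shRNA, which holds 4 shRNAs against Pparg. Each vector was combined with vehicle or with benzbromarone (BBR), a uricosuric drug, at 25 mg/kg by gavage every day for 4 weeks. This gave the groups Vec, Vec+BBR, shRNA and shRNA+BBR, with the livers of 5 mice each sequenced. The study reports more mice per group for its serum measurements, and how the sequenced livers were chosen is not given. Every mouse therefore carried the Lepr mutation and a viral vector, and was fasted for 6 h before the liver was taken. The sources used here do not name the promoter that drove the shRNAs, and no group was untouched by virus. The comparisons asked what BBR did to hepatic transcripts, and what it did after knockdown of Pparg, the gene for the lipogenic nuclear receptor PPARγ.

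Hepcidin is a small peptide hormone secreted by hepatocytes. It binds ferroportin, the exporter encoded by Slc40a1, and causes its degradation, so that high hepcidin holds iron in cells and low hepcidin lets it enter plasma. BMP6 from sinusoidal endothelial cells acts on hepatocytes through SMAD proteins to raise Hamp and Id1, with HFE and transferrin receptor 2 as sensors of transferrin-bound iron, and interleukin 6 acts on Hamp through STAT3. Inside cells, iron regulatory proteins bind stem-loops called iron-responsive elements. Binding protects the Tfrc transcript when iron is scarce and blocks translation of the ferritin and ferroportin transcripts, so that RNA levels of Tfrc report on this control more directly than those of Fth1, Ftl1 and Slc40a1.

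The windows of 250 bases upstream of the RefSeq starts of both hepcidin genes are shown because the hepcidins had the largest falls of the 10 genes (BBR in Vec mice). They come from the RefSeq promoter table for GRCm38.p6, and both lie on the minus strand. The GENCODE model of Hamp2 used for gene positions below begins farther upstream, so that its window lies inside that model. Capitals mark GGCGCC, the letters of a BMP-responsive element, and TTCNNNGAA, the letters of a STAT element, searched on both strands.
Hamp, chr7:30944030-30944279: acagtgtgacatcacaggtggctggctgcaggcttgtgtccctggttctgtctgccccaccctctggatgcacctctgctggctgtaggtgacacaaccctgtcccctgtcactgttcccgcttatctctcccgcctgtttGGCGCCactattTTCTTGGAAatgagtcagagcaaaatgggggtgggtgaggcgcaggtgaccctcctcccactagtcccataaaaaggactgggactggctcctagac
Hamp2, chr7:30924182-30924431: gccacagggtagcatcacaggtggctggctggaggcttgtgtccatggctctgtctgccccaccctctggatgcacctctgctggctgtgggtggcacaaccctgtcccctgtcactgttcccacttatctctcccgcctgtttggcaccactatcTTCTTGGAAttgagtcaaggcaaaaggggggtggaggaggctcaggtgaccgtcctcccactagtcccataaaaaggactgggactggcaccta
The windows were identical at 227 of 253 aligned positions (89.7%). Both held TTCTTGGAA, starting 97 bases upstream of the annotated start in Hamp (position -97) and at -94 in Hamp2. GGCGCC was found in Hamp at -109. Under the alignment Hamp2 differed from it by G4A, with positions counted from the first base of the motif. Among 32851 promoter windows in the table, each running to 50 bases past the start, 11.87% held GGCGCC and 8.3% held TTCNNNGAA, so neither set of letters is rare. Of the other members, 1 of the 2 Tfrc windows held GGCGCC at -89. The table had windows for 7 of the 10 members, and Trf, Slc40a1 and Id1 were not matched.

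The stem-loops of the transcripts under iron regulatory control are shown because they are what Tfrc, Fth1, Ftl1 and Slc40a1 have in common apart from their function. A bulged C, a paired stem of 5 bases on each side and the loop CAGTGN with a last base other than G were searched on the transcript strand in the untranslated regions (UTRs) of GENCODE M21 transcripts (GRCm38). Each is given with 30 bases and the loop in capitals.
Fth1, 5′ UTR, chr19:9982731-9982760, plus strand: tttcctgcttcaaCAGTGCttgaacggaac
Ftl1, 5′ UTR, chr7:45459779-45459808, minus strand: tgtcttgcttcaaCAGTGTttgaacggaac
Slc40a1, 5′ UTR, chr1:45925465-45925494, minus strand: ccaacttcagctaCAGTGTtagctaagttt
Tfrc, 3′ UTR, chr16:32631218-32631247, plus strand: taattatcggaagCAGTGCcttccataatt
Tfrc, 3′ UTR, chr16:32631597-32631626, plus strand: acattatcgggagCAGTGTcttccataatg
Tfrc, 3′ UTR, chr16:32631662-32631691, plus strand: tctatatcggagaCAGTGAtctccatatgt
Tfrc, 3′ UTR, chr16:32631709-32631738, plus strand: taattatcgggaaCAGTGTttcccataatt
Fth1, Ftl1 and Slc40a1 had 1 such stem-loop each and Tfrc had 4, while the other 6 members had none with these letters. Over 21899 protein-coding genes, 0.096% had one in a 5′ UTR and 0.448% in a 3′ UTR.

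Library totals ran from 17432904 to 25024099 expected counts, with a median of 21409860. Levels are given as CPM, the count scaled to library size, after TMM scaling, and 3 counts, taken as the floor, correspond to 0.12 to 0.172 CPM. The least abundant member, Bmp6, had between 44 and 141 counts per library, and counting error is therefore a larger part of its spread than for the others. Pparg, which checks the knockdown, was at 16.4 to 35.9 CPM in Vec, 28.0 to 38.3 in Vec+BBR, 3.24 to 7.31 in shRNA and 7.19 to 21.8 in shRNA+BBR. It fell by 2.12 on the log2 scale in shRNA against Vec and by 1.20 in shRNA+BBR against Vec+BBR (edgeR, adjusted p = 4.47e-05 and 0.00843), and was 1.28 higher in shRNA+BBR than in shRNA (adjusted p = 0.00773). The labels do not say whether replicates share a litter or cage. The p-values set each difference against the spread between these mice, estimated for each gene over all 4 groups together.

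Per unit of transcript length, the plasma iron carrier Trf was the most abundant member in all 20 livers, with a median of 5753 FPKM and a range of 4995 to 7418. Ftl1 followed with a median of 3985 FPKM and Fth1 with 2803, and Ftl1 was above Fth1 in 20 of 20 livers. Hamp had a median of 966 FPKM and Hamp2 of 619, with Hamp higher in 18 of 20 livers. Slc40a1 was far lower at 30.5 FPKM, followed by Hfe at 23.2, with Slc40a1 higher in 19 of 20 livers, and Id1 at 11.6, which was below Hfe in 19 of 20. Tfrc at 3.18 FPKM and Bmp6 at 1.06 were the lowest, and Tfrc was above Bmp6 in every liver. The ranges of neighbours were apart between Trf and Ftl1, Fth1 and Hamp, Hamp2 and Slc40a1, and Id1 and Tfrc, whereas the other 5 neighbouring pairs overlapped. The hepcidins varied most, since Hamp2 ran from 66.5 to 1466 FPKM and Hamp from 229 to 1579.

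**Figure D1:**
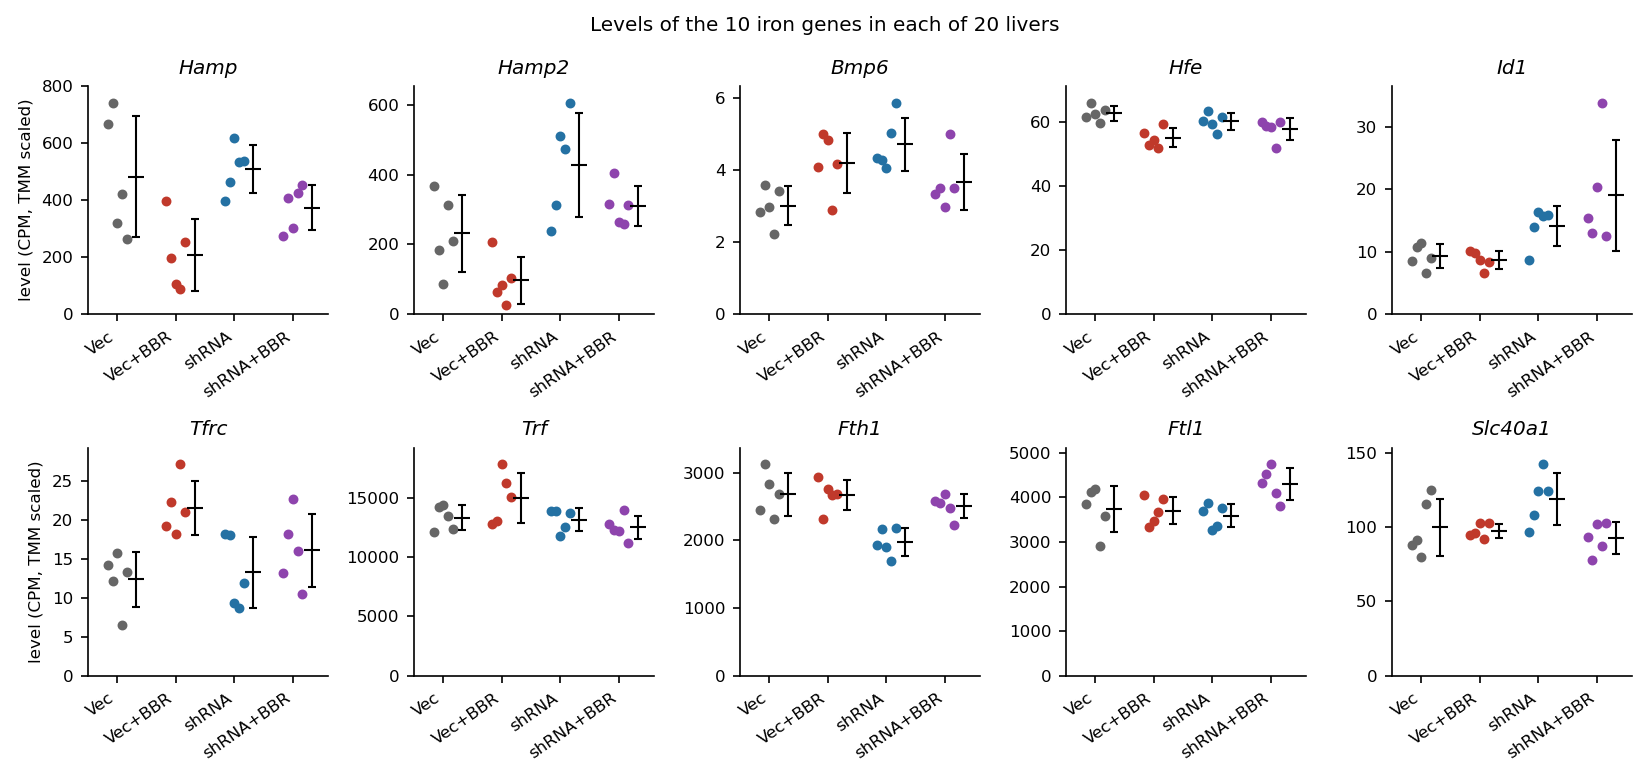
Level of each of the 10 genes (y axis, CPM after TMM scaling, from 0) in every liver by group (x axis); each point is 1 mouse and the bar gives the mean ± SD of 5 mice. Hamp and Hamp2 are low in Vec+BBR, Tfrc is high there, Fth1 is low in shRNA, and 1 shRNA+BBR mouse reaches 33.8 CPM for Id1.

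BBR in Vec mice changed 4 of the 10 genes: Hamp, Hamp2 and Hfe fell and Tfrc rose. Among all 12342 genes tested, 7.58% rose and 7.88% fell in that comparison. With knockdown, shRNA+BBR against Vec+BBR, Hamp2 and Id1 rose and no member fell, against 3.31% of all genes rising and 4.82% falling. Knockdown alone, shRNA against Vec, raised Bmp6 and lowered Fth1, beside 5.28% rising and 7.91% falling. BBR in knockdown mice, shRNA+BBR against shRNA, raised Fth1 and lowered Slc40a1, beside 8.37% rising and 7.28% falling. With 10 members a count of 1 to 3 in a direction is small, and nothing particular to these genes is read from it. The 4 calls for BBR in Vec mice became 1 with the 2 groups fitted alone, and 0 to 4 leaving out 1 mouse. The shares of all genes given here are also the background for the counts in the gene and marker lists below. The median change over the 10 members stood at -0.02, -0.00, 0.09 and -0.07 on the log2 scale in these comparisons, and the members did not move as a block. The comparisons share groups in pairs, so their values are given side by side and are not independent.

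**Figure D2:**
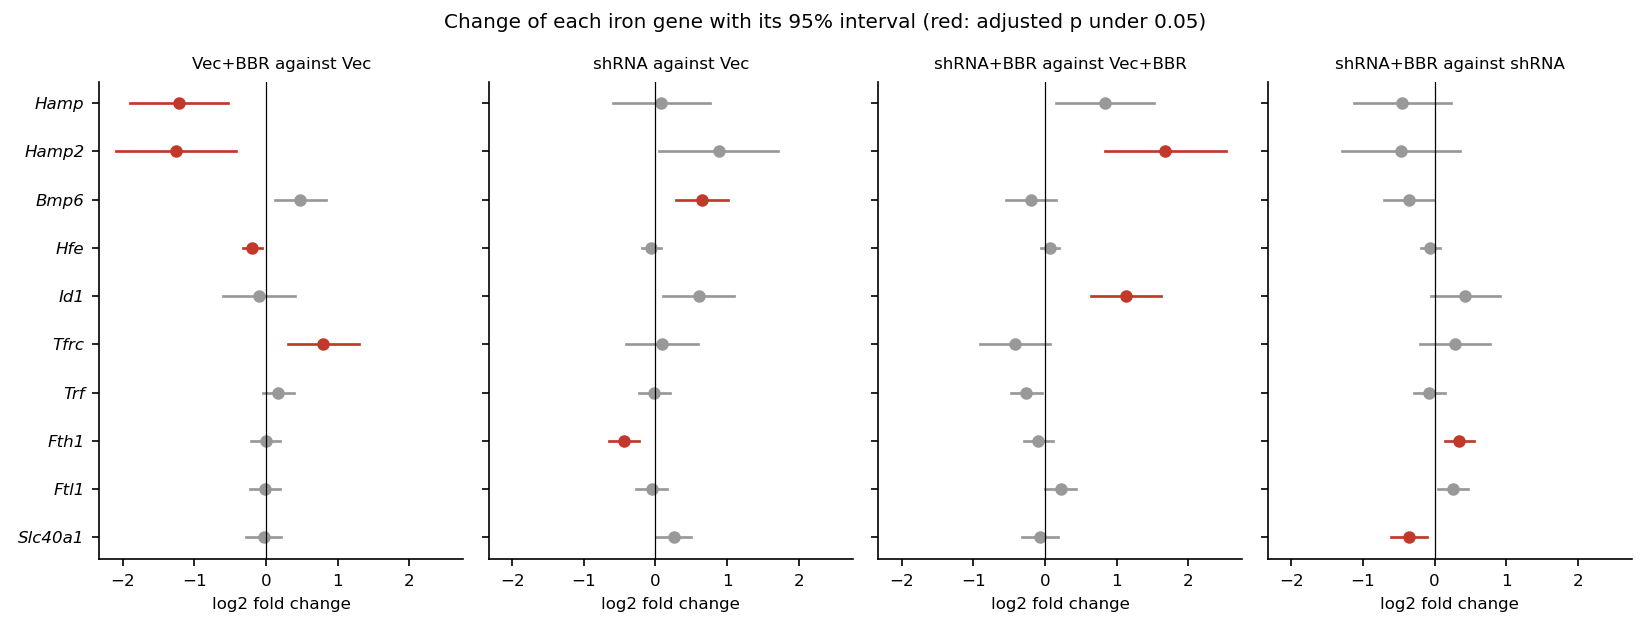
Log2 fold change (x axis) of each gene (y axis) in the 4 comparisons, with its 95% interval from edgeR's quasi-likelihood fit; red marks an adjusted p under 0.05. After BBR in Vec mice Hamp (-1.21) and Hamp2 (-1.26) lie to the left and Tfrc (0.80) to the right, whereas Hamp2 (1.68) and Id1 (1.13) lie to the right in shRNA+BBR against Vec+BBR.

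Hamp, the hepcidin gene active in hormone signalling, is at chr7:30942368-30944032. In Vec mice it was at 669, 742, 320, 421 and 264 CPM (483 ± 212, SD, n = 5). In Vec+BBR mice it was at 397, 197, 107, 87.8 and 252 CPM (208 ± 125). In Vec+BBR 4 of the 5 livers were below every Vec liver, and Vec+BBR mouse 1 lay inside the Vec range. The fall was 1.21 on the log2 scale (SE 0.33, adjusted p = 0.0169), a level of 0.431 times that in Vec. The call was lost without Vec mouse 1 (adjusted p = 0.0503), without Vec mouse 2 (0.0597) and when the 2 groups were fitted alone (0.0733), with the fall at 1.01 or more throughout. The SD of Hamp was 43.9% of the mean in Vec and 60% in Vec+BBR, beside 16.3% in shRNA and 21.1% in shRNA+BBR. The main fit shares its estimate of spread over these 4 groups.

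Knockdown alone left Hamp at 398, 463, 619, 535 and 536 CPM (510 ± 83.4), inside the Vec range. The difference from Vec was 0.08 (95% interval -0.60 to 0.76, adjusted p = 0.902). In shRNA+BBR mice Hamp was at 275, 409, 304, 426 and 452 CPM (373 ± 78.8), and all 5 were above every Vec+BBR liver except mouse 1, which 3 of them exceeded. The difference from Vec+BBR was 0.84 (SE 0.33) and did not pass (adjusted p = 0.115). Without Vec+BBR mouse 1 it was 1.23 and passed (adjusted p = 0.0188). With any other mouse left out it did not pass, and it went down to 0.65 (edgeR, adjusted p up to 0.241). Against shRNA the difference was -0.45 (95% interval -1.13 to 0.23, adjusted p = 0.343).

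Hamp2, the neighbouring hepcidin copy in mice, is at chr7:30922372-30924681. It was at 367, 185, 86.1, 314 and 209 CPM in Vec and at 207, 64.5, 83.0, 26.2 and 104 CPM in Vec+BBR. Of the Vec+BBR livers 3 were below every Vec liver. The fall was 1.26 (SE 0.40, adjusted p = 0.0386). This call did not survive the removal of Vec mouse 1, 2 or 4 or of Vec+BBR mouse 2, 3, 4 or 5 (adjusted p between 0.0522 and 0.114), nor a fit of the 2 groups alone (0.106).

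In shRNA+BBR mice Hamp2 was at 315, 403, 263, 259 and 312 CPM (310.5 ± 58), above all 5 Vec+BBR livers (96.9 ± 67.8). It was 3.2-fold higher than in Vec+BBR (log2 difference 1.68, SE 0.41, adjusted p = 0.0152), and this held with every mouse left out in turn (adjusted p up to 0.0442). In shRNA mice it was at 239, 314, 511, 472 and 605 CPM. Its difference from Vec was 0.88 (SE 0.40, adjusted p = 0.148), and that of shRNA+BBR from shRNA was -0.46 (SE 0.40, adjusted p = 0.427).

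The longest transcripts of the copies were identical at 388 of 437 aligned positions (88.8%). Reads that match both cannot be assigned with certainty, so each gene's value is less certain than their sum. Summed, the 2 genes fell by 1.23 with BBR in Vec mice (adjusted p = 0.0146) and were 1.18 higher in shRNA+BBR than in Vec+BBR (adjusted p = 0.0301). The sum ran from 114 to 604 CPM in Vec+BBR, from 406 to 1036 in Vec and from 567 to 812 in shRNA+BBR. Hamp2 made up 20 to 44.1% of the 2 genes' counts in Vec livers (mean 32.7 ± 11.5%) and 22.9 to 43.7% in Vec+BBR livers (31 ± 8.4%). In shRNA livers it made up 37.5 to 53% (44.6 ± 6.01%) and in shRNA+BBR livers 37.8 to 53.4% (45.6 ± 6.35%). This share was looked at after the values were seen and was not tested. The ranges overlap between the vectors, and the 2 livers with the highest shares, 53% and 53.4%, both carried the Pparg shRNA.

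Markers of liver cell types moved in the same comparison as the fall of the hepcidins. Of 8 hepatocyte markers, 3 fell in Vec+BBR against Vec, namely Ass1 (-1.08), Cyp2e1 (-0.80) and Tat (-1.18), and none rose. Their summed level ran from 125190 to 154351 CPM in Vec and from 90698 to 125174 in Vec+BBR. Of 10 sinusoidal endothelial markers 6 rose, of 8 stellate markers 3 rose, and of 5 cholangiocyte markers 1 rose, Spp1 (1.00). Of 11 Kupffer cell and macrophage markers 1 rose, Cd68 (0.64), and 2 fell, Marco (-3.03) and Timd4 (-0.78). No listed hepatocyte marker was at the floor. In whole liver, fewer cells of a type and less RNA per cell cannot be told apart, and the part of cell composition in the hepcidin values was not tested. Hepatocyte secretory genes of the interleukin 6 and STAT3 acute phase list also fell with BBR in Vec mice, 5 of 18 with none rising, namely the fibrinogen chains Fgb (-0.48), Fgg (-0.48) and Fga (-0.38) and the inter-alpha-trypsin inhibitor chains Itih4 (-0.71) and Itih3 (-0.72). The median of that list was -0.15, beside -0.01 over all genes.

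Bmp6, the ligand that links liver iron to hepcidin, is at chr13:38345107-38500302. In Vec it was at 2.86, 3.6, 2.99, 2.23 and 3.44 CPM, and in shRNA at 4.34, 4.30, 4.07, 5.04 and 5.88 CPM. All 5 shRNA livers were above all 5 Vec livers, 1.57-fold in the fit (log2 difference 0.65, SE 0.17, adjusted p = 0.0166). Without shRNA mouse 5 the adjusted p was 0.0501, with a difference of 0.56.

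Vec+BBR livers were at 4.10, 5.02, 4.85, 2.90 and 4.19 CPM of Bmp6, of which 4 were above every Vec liver and mouse 4 was inside their range. Their difference from Vec, 0.48 (SE 0.17), did not pass (adjusted p = 0.0639). It was 0.59 and passed without Vec+BBR mouse 4 (adjusted p = 0.0293). With any other mouse left out it did not pass, and it went down to 0.39 (edgeR, adjusted p up to 0.16). In shRNA+BBR Bmp6 was at 3.34, 3.52, 2.98, 5.02 and 3.52 CPM, and it differed neither from Vec+BBR (-0.19, 95% interval -0.55 to 0.16, adjusted p = 0.516) nor from shRNA (-0.36, 95% interval -0.71 to -0.01, adjusted p = 0.139) past the threshold.

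Of Bmp6's 3900 exonic bases, 224 overlap exons of Txndc5 on the opposite strand, a far more abundant gene with a median of 3072 counts. The sources used here do not say whether the counting used strand. Txndc5 fell by 0.59 in shRNA against Vec (adjusted p = 0.000696), the opposite direction to Bmp6, and its difference with BBR in Vec mice was 0.03 (adjusted p = 0.892). Of 10 endothelial markers, 3 rose in shRNA against Vec, Kdr (0.55), Stab2 (0.64) and Clec4g (0.47), and their summed level ran from 165 to 224 CPM beside 120 to 159 in Vec. The sum was 156 to 218 CPM in Vec+BBR and 161 to 211 in shRNA+BBR. The parts of endothelial content and of Txndc5 reads in the Bmp6 values were not tested.

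Hfe, the membrane protein mutated in classical haemochromatosis, varied little between mice. It was at 61.6, 66.1, 62.7, 59.8 and 64.0 CPM in Vec and at 56.6, 53.0, 54.5, 52.1 and 59.5 CPM in Vec+BBR. All treated livers were below all Vec livers, although by little, 0.877 times the Vec level (log2 difference -0.19, SE 0.06, adjusted p = 0.0435). With library totals in place of TMM, which raised the median of all genes by itself, the difference was -0.05 (adjusted p = 0.588). The call was lost without a filter on low counts (0.0900), with the 2 groups fitted alone (0.0873) and without Vec mouse 1, 2 or 5 or Vec+BBR mouse 2, 3 or 4 (adjusted p between 0.0617 and 0.114). Hfe in shRNA (60.3 ± 2.65 CPM) and in shRNA+BBR (58 ± 3.32) did not differ past the threshold in any of the other 3 comparisons (adjusted p between 0.511 and 0.565).

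After BBR in Vec mice the median of all genes was 0.128 with library totals and -0.01 with TMM, and the share of risen genes among those called was 80% and 49.1%. In shRNA against Vec these shares were 66.3% with totals and 40% with TMM. Under library totals Trf (0.31, adjusted p = 0.0389) and Bmp6 (0.62, adjusted p = 0.0197) also passed after BBR in Vec mice, and Id1 (0.72, adjusted p = 0.0493) in shRNA against Vec. Relative to the shifted medians these changes, and that of Hfe, remain close to their TMM values.

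Id1, an inhibitor of DNA binding whose transcript responds to BMP and SMAD signalling, rose in shRNA+BBR against Vec+BBR. It was at 10.05, 9.76, 8.66, 6.52 and 8.33 CPM in Vec+BBR and at 15.3, 12.97, 20.4, 33.8 and 12.5 CPM in shRNA+BBR. The groups did not overlap, and the rise was 2.19-fold (log2 difference 1.13, SE 0.24, adjusted p = 0.00643). It held with every mouse left out in turn, with the smallest value, 0.82, without shRNA+BBR mouse 4 (adjusted p up to 0.0212 over all of them). In Vec it was at 8.52, 10.8, 11.4, 6.64 and 8.996 CPM and in shRNA at 8.64, 13.9, 16.3, 15.7 and 15.8 CPM. In shRNA 4 livers were above every Vec liver and mouse 1 was not. The difference was 0.61 (SE 0.24, adjusted p = 0.0954), and 0.74 without that mouse (adjusted p = 0.0476). With any other mouse left out it did not pass, and it went down to 0.51 (edgeR, adjusted p up to 0.177). BBR gave a difference of -0.09 in Vec mice (95% interval -0.60 to 0.41, adjusted p = 0.834) and of 0.43 in knockdown mice (95% interval -0.05 to 0.91, adjusted p = 0.196). The difference between these BBR effects was 0.53 and did not pass (adjusted p = 0.397). Of 10 endothelial markers, which mark a further source of Id1, none passed in shRNA+BBR against Vec+BBR, with values from -0.23 to 0.44. The part of endothelial content in the Id1 values was not tested.

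The other genes of hepcidin regulation were read from a list of 28, of which 26 were tested. In shRNA+BBR against Vec+BBR 3 rose and 1 fell. The risen genes were Id2 (0.71, adjusted p = 0.00888) and Id3 (0.76, 0.0282), relatives of Id1, and Smad7 (0.83, 0.0352), an inhibitory SMAD that BMP signalling induces. The one that fell was Tmprss6 (-0.33, 0.0464), the protease that cleaves the BMP coreceptor hemojuvelin and so restrains hepcidin. In shRNA against Vec 3 rose and 2 fell: Hjv, which encodes hemojuvelin (0.58, adjusted p = 0.00416), Smad9 (1.32, 0.00463) and Smad7 (0.81, 0.0274) rose, and the hepatocyte transcription factor Cebpa (-0.45, 0.00833) and Tmprss6 (-0.36, 0.0214) fell. After BBR in Vec mice none rose and 2 fell, Tfr2, the second transferrin receptor and a hepcidin sensor (-0.52, adjusted p = 0.00199), and Id2 (-0.48, 0.0426). None of the 26 passed in shRNA+BBR against shRNA. The medians of the list were -0.02 for BBR in Vec mice, 0.00 for shRNA+BBR against Vec+BBR, 0.09 for shRNA against Vec and -0.12 for shRNA+BBR against shRNA, beside medians of all genes between -0.01 and 0.01.

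**Figure D3:**
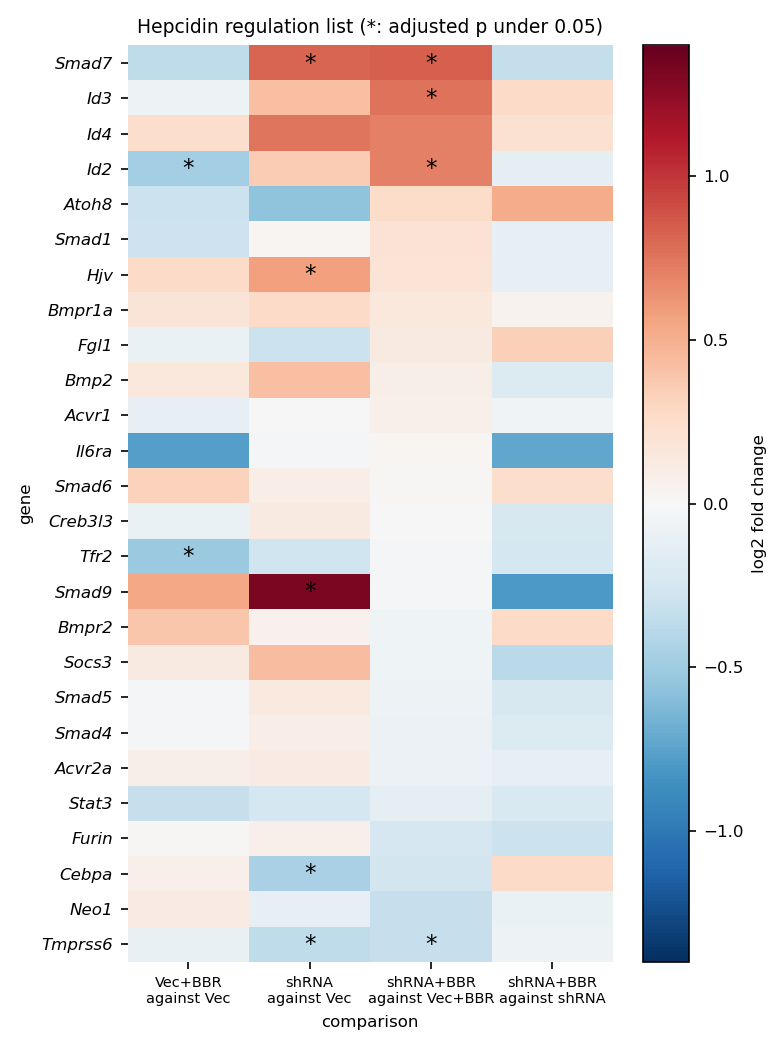
Log2 fold change (colour) of the 26 tested genes of the hepcidin regulation list (rows, ordered by shRNA+BBR against Vec+BBR) in 4 comparisons (columns); a star marks an adjusted p under 0.05. Smad7 (0.81 and 0.83) and Tmprss6 (-0.36 and -0.33) carry a star in both knockdown comparisons, and the column of shRNA+BBR against shRNA has none.

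Tfrc, transferrin receptor 1, which takes up transferrin-bound iron, is at chr16:32608920-32632794. It was at 14.2, 12.2, 15.7, 6.49 and 13.3 CPM in Vec and at 19.2, 22.3, 18.3, 27.1 and 21.1 CPM in Vec+BBR. Every treated liver was above every Vec liver, 1.74-fold in the fit (log2 difference 0.80, SE 0.24, adjusted p = 0.0265). The call was lost without Vec mouse 2 (adjusted p = 0.0567) or 4 (0.0606) or Vec+BBR mouse 2 (0.0565) or 4 (0.0754), with a difference of at least 0.64. Vec+BBR mouse 4 had both the highest Tfrc and the lowest Hamp and Hamp2 of its group.

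In shRNA livers Tfrc was at 18.1, 18.1, 9.38, 8.72 and 11.96 CPM, and the difference from Vec was 0.09 (95% interval -0.41 to 0.59, adjusted p = 0.838). shRNA mice 1 and 2, the high ones, also had the lowest Hamp, Hamp2 and Slc40a1 of that group. In shRNA+BBR Tfrc was at 13.1, 18.2, 22.7, 16.1 and 10.5 CPM. Neither the difference from Vec+BBR (-0.42, SE 0.23, adjusted p = 0.275) nor that from shRNA (0.29, SE 0.24, adjusted p = 0.411) passed. Erythroid precursors also carry much Tfrc. None of the 6 tested erythroid markers passed after BBR in Vec mice, 5 of their 6 values were positive with a median of 0.56, and the summed level of 8 was 612 to 1318 CPM in Vec and 741 to 2305 in Vec+BBR, with Tspo2 at the floor in every library. The part of blood cell RNA in the Tfrc values was not tested.

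Trf, which encodes the plasma carrier transferrin and is made by hepatocytes, was steady. It was at 12126, 14251, 14375, 13452 and 12368 CPM in Vec and at 12783, 13066, 17802, 16214 and 15075 CPM in Vec+BBR. Of the treated livers 3 were above the highest Vec liver, and the difference was 0.17 (95% interval -0.05 to 0.39, adjusted p = 0.291). Among shRNA livers the mean was 13145 ± 967 CPM, and 12490 ± 1007 among those of shRNA+BBR, and the differences were -0.02 (shRNA against Vec), -0.26 (shRNA+BBR against Vec+BBR, adjusted p = 0.123) and -0.07 (shRNA+BBR against shRNA). Trf shares 2108 of 3320 exonic bases with an overlapping gene model on the same strand, Gm20425, which was not analysed here.

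Fth1, the ferritin heavy chain with ferroxidase activity, is at chr19:9980598-9985098. In Vec it was at 2453, 3122, 2832, 2308 and 2679 CPM, and in shRNA at 1937, 2166, 1895, 1697 and 2177 CPM. No shRNA liver reached the Vec range. The fall was 0.44 (SE 0.10, adjusted p = 0.0054), to 0.737 times the Vec level, and it passed with each mouse left out (adjusted p up to 0.0229). With BBR on top of the knockdown Fth1 was at 2585, 2559, 2684, 2484 and 2221 CPM. All 5 were above all 5 shRNA livers, 1.27-fold in the fit (log2 difference 0.34, SE 0.10, adjusted p = 0.0251). That call was lost without shRNA mouse 1 (adjusted p = 0.0526) or 4 (0.0694) or shRNA+BBR mouse 2 (0.0520) or 3 (0.0718). BBR in Vec mice left Fth1 at 2672 ± 225 CPM beside 2679 ± 319 in Vec (difference -0.00, 95% interval -0.21 to 0.20). For shRNA+BBR against Vec+BBR the difference was -0.09 (adjusted p = 0.601).

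Macrophages and young erythroid cells are also rich in ferritin. Of 11 Kupffer cell and macrophage markers 1 fell in shRNA against Vec, Cd68 (-0.72), with a median of -0.44 over the list, and 3 rose in shRNA+BBR against shRNA, with a median of 0.22. Their summed level was 199 to 485 CPM in Vec, 250 to 341 in shRNA and 319 to 456 in shRNA+BBR. The 6 tested erythroid markers had a median of -0.88 in the first comparison and 0.82 in the second, and none passed in either. In these comparisons the list medians therefore had the same direction as Fth1. For BBR in Vec mice the medians were -0.04 (Kupffer cells and macrophages) and 0.56 (erythroid cells), beside -0.00 for Fth1. For shRNA+BBR against Vec+BBR they were 0.07 and -0.58, beside -0.09 for Fth1. The part of these cells in the Fth1 values was not tested.

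Ftl1, the ferritin light chain that nucleates the iron core, is at chr7:45457944-45459884. It was at 3858, 4121, 4177, 2909 and 3590 CPM in Vec and at 3687, 3868, 3267, 3361 and 3770 CPM in shRNA, which overlapped (difference -0.06, 95% interval -0.27 to 0.16). In shRNA+BBR it was at 4321, 4524, 4737, 4097 and 3808 CPM. It did not pass against shRNA (0.26, SE 0.10, adjusted p = 0.085) or against Vec+BBR (0.22, SE 0.10, adjusted p = 0.194); DESeq2 called the first (adjusted p = 0.0462). Copies named as pseudogenes are annotated for both ferritin chains, and their similarity was not computed. Ftl1-ps1, the only one of these that was counted, had a median of 244 expected counts beside 57384 to 109174 for Ftl1. Ftl1 also shares 355 of 1340 exonic bases with Gm10252 on the opposite strand. The part of such reads in the values of Fth1 and Ftl1, and in their ratio below, was not tested.

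The ratio of the ferritin chains needs no scaling between libraries. The Fth1 to Ftl1 count ratio was 0.636, 0.758, 0.678, 0.793 and 0.746 in Vec livers and 0.725, 0.695, 0.793, 0.727 and 0.679 in Vec+BBR livers. In shRNA livers it was 0.525, 0.56, 0.58, 0.505 and 0.577, and in shRNA+BBR livers 0.598, 0.566, 0.567, 0.606 and 0.583. The highest of the 10 livers with the Pparg shRNA, 0.606, was below the lowest of the 10 with the control vector, 0.636. Within each vector the BBR and vehicle ranges overlapped. The means were 0.722 ± 0.0638 in Vec, 0.724 ± 0.0435 in Vec+BBR, 0.55 ± 0.0331 in shRNA and 0.584 ± 0.0183 in shRNA+BBR. The ratio was chosen after the values were seen and was not tested.

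**Figure D4:**
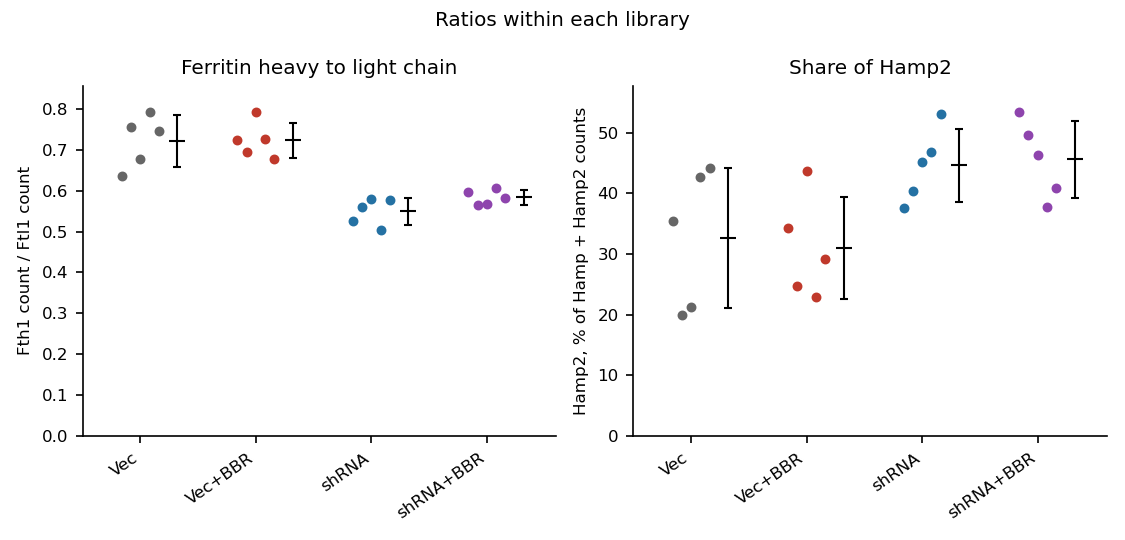
Fth1 count divided by Ftl1 count (left, y axis from 0) and Hamp2 as a percentage of the Hamp and Hamp2 counts (right, y axis from 0) in each liver by group; points are mice and bars the mean ± SD of 5. The ferritin ratio of all 10 shRNA-vector livers (0.505 to 0.606) lies below that of all 10 control-vector livers (0.636 to 0.793), whereas the Hamp2 shares overlap.

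Slc40a1, ferroportin, the only known iron exporter of mammalian cells, is at chr1:45908068-45926523. The shRNA livers were at 96.5, 108, 124, 142 and 124 CPM and the shRNA+BBR livers at 93.2, 78.1, 102, 87.3 and 103 CPM. The ranges overlapped at their edge, through shRNA mouse 1. The fall was 0.36 (SE 0.12, adjusted p = 0.0452), to 0.779 times the shRNA level, and it is among the weakest calls: it was lost on leaving out any mouse but shRNA mouse 1 or shRNA+BBR mouse 5 (adjusted p up to 0.12), without the filter on low counts (0.0547), with at least 10 counts in every library (0.0521) and with library totals (0.0733). Slc40a1 was at 99.8 ± 19.2 CPM in Vec and 97.6 ± 4.84 in Vec+BBR (difference -0.03, 95% interval -0.28 to 0.22). shRNA against Vec gave 0.25 (SE 0.12, adjusted p = 0.164) and shRNA+BBR against Vec+BBR -0.07 (SE 0.12, adjusted p = 0.75). Macrophages also express ferroportin. Among the Kupffer cell and macrophage markers named above, Cd68 (0.88), C1qa (0.67) and C1qb (0.55) rose in shRNA+BBR against shRNA and none fell. Of 11 values 8 were positive, the lowest was -0.61, and the summed levels were 319 to 456 CPM beside 250 to 341. Cd163, a macrophage receptor outside that marker list, fell in the same comparison (-0.92). The part of macrophage content in the Slc40a1 values was not tested.

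Around these genes, the list of iron uptake, storage and iron regulatory protein control had 22 genes, 20 of them tested. After BBR in Vec mice 2 rose, the copper-dependent ferroxidase Heph (1.00, adjusted p = 0.0343) and Hif1a (0.33, 0.0213), and 1 fell, the endosomal ferrireductase Steap3 (-0.43, 0.0158). In shRNA against Vec 3 rose, namely Fbxl5, the iron-sensing ubiquitin ligase subunit for iron regulatory protein 2 (0.42, adjusted p = 0.00362), the mitochondrial iron importer Slc25a28 (0.43, 0.0183) and Hif1a (0.32, 0.0304), and 1 fell, the iron chaperone Pcbp1 (-0.30, 0.00713). Between shRNA+BBR and Vec+BBR only Steap3 passed (-0.40, 0.0361). BBR in knockdown mice moved 4: Steap3 (-0.82, 0.00135), Slc25a28 (-0.40, 0.0279) and the metal transporter Slc39a8 (-0.40, 0.0283) fell and Slc11a1, a macrophage metal transporter, rose (0.60, 0.0482). Steap3 thus fell in 3 of the 4 comparisons. The medians of the list were -0.11 for BBR in Vec mice, 0.04 for shRNA against Vec, -0.04 for shRNA+BBR against Vec+BBR and -0.10 for shRNA+BBR against shRNA.

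The genes of haem synthesis, breakdown and transport made up the next list. Of 21 tested, 5 fell and none rose in shRNA against Vec, which were haptoglobin, Hp (-1.07, adjusted p = 0.000163), biliverdin reductase B, Blvrb (-0.86, 0.00132), and the haem synthesis enzymes Uros (-0.57, 0.00296), Fech (-0.29, 0.0236) and Alad (-0.36, 0.0423). Under BBR the knockdown lowered 4 and raised none, namely Fech (-0.44, 0.0034), Uros (-0.59, 0.00427), Hp (-0.64, 0.0167) and the haem transporter Slc48a1 (-0.26, 0.0437). After BBR in Vec mice Slc48a1 (0.31, 0.0107) and Uros (0.41, 0.0199) rose and Hmox2 (-0.28, 0.0225) fell. Within knockdown mice BBR raised Hp (0.71, 0.00927), Blvrb (0.56, 0.026) and Uros (0.39, 0.0324), and lowered Lrp1 (-0.74, 0.013) and the haptoglobin receptor Cd163 (-0.92, 0.0327). Uros passed in all 4 comparisons, rising with BBR and falling with the knockdown. Of all genes, 7.91% fell and 5.28% rose in shRNA against Vec, and 4.82% fell and 3.31% rose in shRNA+BBR against Vec+BBR. The medians of the list were -0.19 and -0.05 in these 2 comparisons. They were -0.17 for BBR in Vec mice and -0.00 for BBR in knockdown mice.

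Of 16 genes of iron-sulphur cluster assembly, 5 fell and none rose in shRNA against Vec, with Fdxr (-0.57, adjusted p = 0.00574) and the scaffold gene Iscu (-0.39, 0.0398) among them. In that comparison 7.91% of all genes fell and 5.28% rose, and the median of the list was -0.06. With BBR in Vec mice Lyrm4 (-0.60, 0.00812) and Fdx1 (-0.35, 0.0295) fell, and in shRNA+BBR against Vec+BBR Lyrm4 rose (0.55, 0.0222). BBR in knockdown mice raised Fdxr (0.60, 0.0068) and Iscu (0.38, 0.044) and lowered Hspa9 (-0.31, 0.0167). Of the 18 acute phase genes, 2 fell in shRNA against Vec, Orm2 (-1.57, adjusted p = 0.000152) and Hp, and Hp fell in shRNA+BBR against Vec+BBR. With BBR in knockdown mice 4 rose, including Saa2 (1.38, 0.0212) and Orm2 (0.89, 0.0166), and 2 fell, Fga (-0.39, 0.0166) and Itih4 (-0.62, 0.0213). Hamp differed by -0.45 there (SE 0.33) and did not pass (edgeR, adjusted p = 0.343), which does not show that it was unchanged. The part of the acute phase response in the Hamp values was not tested.

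Clock genes were listed because hepatic hepcidin and transferrin receptor transcripts can vary over the day. In both knockdown comparisons 2 of 11 tested rose and 2 fell. Under BBR these were Cry1 (1.09, adjusted p = 0.000301) and Arntl (1.57, 0.00519), and Nr1d1 (-1.67, 0.00322) and Dbp (-1.35, 0.0176). In shRNA against Vec, Arntl (1.10, 0.0229) and Cry1 (0.52, 0.0281) rose, and Dbp (-1.34, 0.012) and Nr1d1 (-1.07, 0.0254) fell. BBR in Vec mice lowered 2, Cry1 (-0.57, 0.0168) and Per3 (-0.48, 0.0353). Between shRNA+BBR and shRNA Clock rose (0.49, 0.0113), and Tef (-0.46, 0.0169), Per1 (-0.57, 0.0196) and Per3 (-0.54, 0.0245) fell. The hour at which each group was sampled is not given in the sources used here, and the part of sampling time in the values of the iron genes was not tested.

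The difference between the BBR effects of shRNA and Vec mice was tested for each gene. By edgeR 0 of the 10 members passed, beside 0.0729% of all genes in each direction. At an unadjusted p under 0.05 edgeR had 2, Bmp6 (-0.84, SE 0.24, adjusted p = 0.105) and Fth1 (0.35, SE 0.14, adjusted p = 0.197), beside 18.5% of all genes. DESeq2 called Bmp6 (adjusted p = 0.0415) and limma-voom called no member. For Hamp the difference was 0.76 (95% interval -0.20 to 1.72, adjusted p = 0.374) and for Tfrc -0.51 (95% interval -1.21 to 0.18, adjusted p = 0.407). The fall of Hamp and the rise of Tfrc that passed in Vec mice were therefore not shown to differ from the values in knockdown mice.

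Whether the genes moved together between individual mice was examined after removing group means, over 20 livers and 10 pairs. Fth1 and Ftl1 moved together (Pearson r = 0.79, adjusted p = 0.002, and Spearman rho = 0.81, adjusted p = 0.0018, both from permutation within groups). Their r was 0.80 without the 2 livers farthest from the median of Fth1, and between 0.76 and 0.93 within the 4 groups. Tfrc and Slc40a1 moved in opposite directions (r = -0.61, permutation adjusted p = 0.0488, and rho = -0.62, adjusted p = 0.0622). Without the 2 farthest livers r was -0.50. The sign was negative in every group, from -0.92 in shRNA to -0.25 in shRNA+BBR.

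For Bmp6 and Id1 r was 0.60 (permutation adjusted p = 0.0423) and rho 0.44 (adjusted p = 0.183). Without shRNA+BBR mouse 4 and Vec+BBR mouse 4 r fell to 0.30, so that its size over all livers rests largely on those livers. Within groups r was 0.78 in Vec, 0.82 in Vec+BBR, 0.33 in shRNA and 0.67 in shRNA+BBR. For Hamp and Hamp2 r was 0.68 (permutation adjusted p = 0.0488) and rho 0.55 (adjusted p = 0.134), with r = 0.42 without Vec+BBR mice 4 and 1. The other 6 pairs did not pass by either measure, including Id1 with Hamp (r = 0.27, permutation adjusted p = 0.277) and Bmp6 with Hamp (r = 0.26, permutation adjusted p = 0.427). All pairs share each library's depth and scaling.

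**Figure D5:**
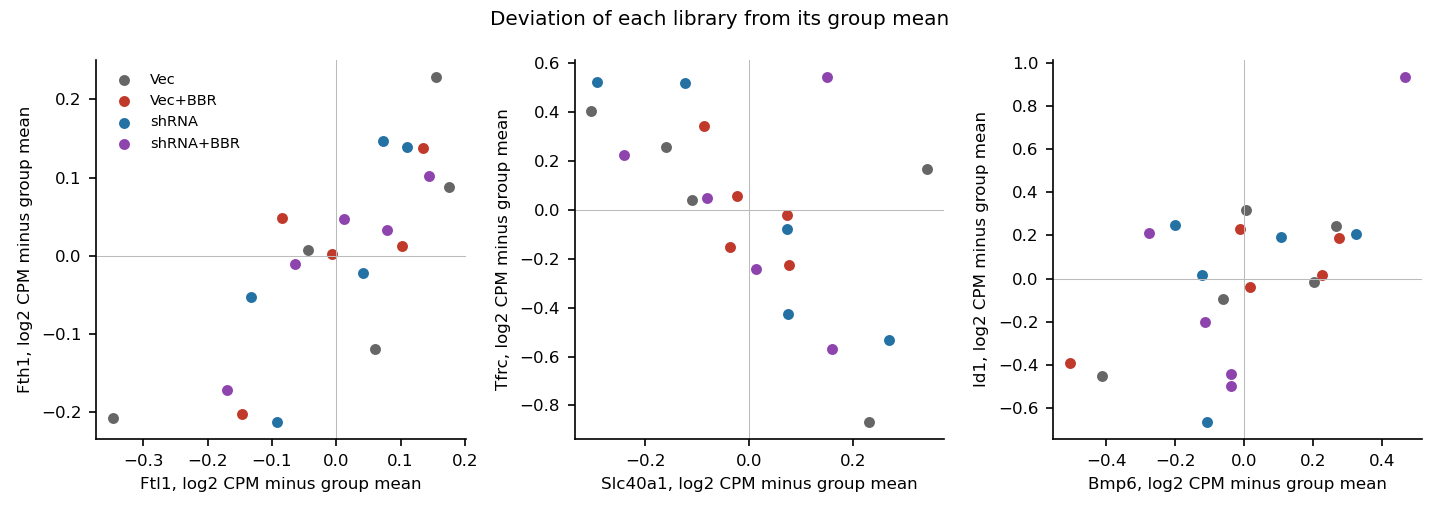
Deviation of each liver from its group mean (log2 CPM, both axes) for Fth1 against Ftl1, Tfrc against Slc40a1 and Id1 against Bmp6, coloured by group; each point is 1 of 20 mice. The ferritin chains rise together (r = 0.79), Tfrc falls as Slc40a1 rises (r = -0.61), and 1 shRNA+BBR mouse stands at the upper right for Id1 and Bmp6.

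The genes whose log2 CPM ran most alike over the 20 livers, among those with a mean of at least 50 counts, are given by Pearson's r as a description. For Hamp these were U2af1 (0.89), Slc9a3r1 (0.89) and Slc43a1 (0.89). For Id1 they were Id3 (0.86), Smad7 (0.78) and Lhx6 (0.77). For Tfrc they were Manf (0.85), Sprr1a (0.85) and Uso1 (0.84), and for Slc40a1 Ice1 (0.81), Nubpl (0.79) and Uspl1 (0.79). These values include the differences between groups.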

How the data were processed

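Poly(A)-enriched RNA from 20 livers was sequenced on an Illumina NovaSeq (per the labels, build mm10). The aligner, counter, annotation and use of strand are not given in the sources used here. The deposited tables hold, per library, an expected count made by the authors (not whole for shared reads, not normalized) and FPKM values made by the authors per length and library size. Expected counts were rounded and tested. FPKM served only to order genes by level. Groups came from the treatment label, which reads control, benzbromarone, PPAR knockdown or PPAR knockdown + benzbromarone. The labels name no vector. Vectors, genotype, sex, age, dose, duration and fasting were taken from the text of the study.

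Genes were kept with filterByExpr (minimum count 10, minimum total 15), which left 12342, and scaled by TMM (factors 0.873 to 1.14). edgeR's quasi-likelihood test (4.0.16, R 4.3.3) was fitted on all 20 libraries with 4 group means, and p-values were adjusted over all genes tested (Benjamini-Hochberg, 0.05). The step was tested on simulated counts with the same dispersion for every gene, which does not represent genes as variable as Hamp and Hamp2. Log2 CPM used a prior count of 1. Correlations used 100000 two-sided permutations within groups (scipy 1.17.1) and adjustment over 10 pairs. Sequences were aligned with Biopython 1.88. Alternatives used DESeq2 1.42.0 and limma 3.58.1.

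The members and lists were chosen with earlier results of these data known. Named beside the 10 members were Pparg, up to 5 genes per pathway list by smallest p among those past the threshold, and the 3 genes most like each of Hamp, Id1, Tfrc and Slc40a1. Marker genes, Txndc5 and Ftl1-ps1 were named after their values were seen. A gene that the naming rule covers is not reported here.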

Additional observations from a re-analysis of the deposited data

Results flagged for a closer look

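In a group of 5, a liver was marked when its gap to the nearest other liver took up more than 0.71 of the group's range (Dixon's test). Of 40 groups examined, 2 were marked, and chance marks about 1 group in 20. Both were shRNA+BBR mouse 4. Its Bmp6 level was 5.02 CPM beside 3.52 in the next liver, and its Hfe level was 52.1 CPM beside 58.6 in the next. The same liver had the highest Id1 of all 20, at 33.8 CPM, and without it the rise of Id1 in shRNA+BBR against Vec+BBR was 0.82 (edgeR, adjusted p = 0.0122).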

How the results depend on the processing

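The alternatives comprised other scalings and tools, other filters, the compared groups alone, a replicate block, the unadjusted threshold of the study and each mouse left out. Scaling by library totals was added after the data were seen. The number of members called was 4 for BBR in Vec mice, 2 for the knockdown under BBR, 2 for the knockdown alone, 2 for BBR in knockdown mice and 0 for the difference of the BBR effects, in which order further counts are given. BBR in Vec mice gave 1 with the 2 groups alone (1178 genes in all beside 1908). BBR in knockdown mice gave 1 with library totals, without a filter or with at least 10 counts in every library. The difference gave 1 by DESeq2 (338 genes in all beside 18) and 30 genes with library totals. At unadjusted p under 0.05 the counts were 5, 5, 5, 4 and 2, beside 3730, 3046, 3510, 4102 and 2281 of all 12342 genes. Leaving out 1 mouse gave 0 to 4, 2 to 3, 1 to 3, 0 to 2 and 0 to 0, and 5 to 122 genes in all for the difference. Values near 0 changed sign, and with library totals the median of all genes moved as well, to 0.128 for BBR in Vec mice, 0.0934 for the knockdown alone and -0.133 for the difference, a shift about equal to the move of each value given with totals. In BBR against vehicle in Vec mice these were Fth1 (0.0030 without a filter, 0.0030 with at least 10 counts, 0.0026 with the block and 0.13 with library totals, and -0.053 to 0.054 leaving out 1 mouse), Ftl1 (0.12 with totals, and -0.091 to 0.023), Slc40a1 (0.094 with totals, and -0.11 to 0.060) and Id1 (0.044 with totals). In shRNA against Vec these were Trf (0.086 with totals, and -0.050 to 0.024), Ftl1 (0.054 with totals), Hfe (0.045 with totals), and, leaving out 1 mouse, Hamp (-0.076 to 0.30) and Tfrc (-0.070 to 0.21). For the difference, Hfe became -0.015 with totals. The correlation of Bmp6 and Hamp became -0.079 without the 2 farthest livers, and that of Hamp and Slc40a1 became 0.16 with group means kept. For the changes without totals the cause was not tested. Same-numbered mice correlated above 0.1 for 3 of 5 numbers in the comparison of shRNA with shRNA+BBR and for 0 or 1 of 5 in the others. Mice with different numbers were not compared, so this cannot decide whether the numbers pair mice. With a replicate block the members called were 4, 2, 2, 2 and 0, and all genes called 1747, 940, 1495, 1819 and 21. With 5 mice a group, wide intervals for Hamp, Hamp2, Tfrc and Id1 leave moderate differences undetectable, and RNA levels do not measure hepcidin, ferritin or ferroportin protein.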
